A study of Mus musculus with 148 samples.

Results

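A group of 7 genes that encode transcription factors of the myeloid lineages were followed across immune cells of the mouse lung and of primary mammary tumors: Spi1, Cebpa, Cebpb, Irf8, Klf4, Nr4a1 and Maf. They were taken by name from the rows of the deposited plate counts, and each was found among 52634 gene rows, of which 36357 had at least 1 unique molecular identifier (UMI) in an annotated immune cell. The animals were female C57BL/6 mice that carry a photoactivatable GFP (strain C57/b6 PA-GFP). Tumor-bearing animals received EO771-tdTomato cells, a mammary carcinoma line of the same strain background, in the right inguinal mammary gland at 8 weeks of age, and tumors were removed after 3 weeks. CT imaging then followed the lungs for spontaneous metastases. Single CD31- CD45+ cells, or CD31- GFP+ cells where a niche had been lit, were sorted into plates and their mRNA 3′ ends were sequenced. The 23425 annotated immune cells came from 27 mice and 63 samples, a sample being 1 tissue of 1 mouse.

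The 8 tissues were Control lungs (status Normal, 3 mice, the normal lungs that the study set against those of tumor-bearing mice), Pre-MET lungs taken while the primary tumor was in place (3), Relapse-free lungs (6), distal normal lung tissue of mice with metastases (14), sections with metastases (MET, 13), photoactivated MET cores (13), photoactivated MET invasive margins (7) and Primary tumors (4). All animals shared the PA-GFP strain, and cores and margins were defined by the light pulse and its gate. The Relapse-free lungs of mice 6 and 7 also had plates gated on photoactivated cells or on GFP- CD45+ cells. The model is a single injected cell line. Distal normal tissue, metastasis, core and margin often came from the same mouse, and Pre-MET lungs and 3 of the 4 primary tumors were from the same 3 mice.

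Spi1 encodes PU.1, which opens the myeloid program in progenitors. Cebpa and Cebpb encode C/EBP factors of granulocyte and monocyte development, the latter also being induced in inflamed cells, and Irf8 is needed for monocytes, conventional type 1 and plasmacytoid dendritic cells. Klf4 and Nr4a1 act in monocytes, Nr4a1 being required for the patrolling Ly6C-low monocyte, and Nr4a1 is also an immediate early gene. Maf encodes c-Maf, a factor of mature macrophages that is also used by T cell subsets.

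Nr4a1 and Klf4 were both lower in Pre-MET than in Control monocytes, so their upstream bases are shown first, from RefSeq on GRCm38.p6, 5′ to 3′ on the gene's strand. Of the 7 members, 5 matched the table of 32851 promoters, namely Nr4a1, Klf4, Cebpa, Cebpb and Irf8. Capitals mark the cyclic AMP response element half-site TGACG, which on the other strand reads as its reverse complement. The Nr4a1 window ends at the RefSeq start, which lies inside the longer span that GENCODE gives the gene.
Nr4a1, chr15:101266596-101266845, + strand: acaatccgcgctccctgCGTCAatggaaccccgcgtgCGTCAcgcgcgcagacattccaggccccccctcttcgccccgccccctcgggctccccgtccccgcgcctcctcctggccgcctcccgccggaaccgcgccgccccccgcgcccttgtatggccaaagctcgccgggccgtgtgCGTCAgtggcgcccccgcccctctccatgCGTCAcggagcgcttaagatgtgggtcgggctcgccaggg
Klf4, chr4:55532476-55532725, - strand: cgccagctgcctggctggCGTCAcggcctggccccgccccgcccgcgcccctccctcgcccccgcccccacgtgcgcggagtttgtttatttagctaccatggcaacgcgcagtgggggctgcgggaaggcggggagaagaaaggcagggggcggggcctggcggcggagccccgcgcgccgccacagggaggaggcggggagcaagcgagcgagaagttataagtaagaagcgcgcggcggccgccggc
The Nr4a1 window of 250 bases holds 4 matches to TGACG on either strand. At least 1 match occurs in 17.8% of all promoters in the table, and as many as 4 in 0.137%. The Klf4 window holds 1. For the GC box GGGCGG, searched on both strands, Klf4 has 4 matches and Nr4a1 has 3, and 32.7% of all promoters hold at least 1. Cebpb, which was not called, holds 3 matches to TGACG (at least as many occur in 0.688% of promoters) and 5 to GGGCGG, while the windows of Cebpa and Irf8 hold none to TGACG. The other 6 motifs searched on both strands had no match in the Nr4a1 and Klf4 windows. These were the nuclear receptor half-site AGGTCA (in 14.0% of all promoters), a C/EBP motif (9.56%), the PU.1 core GAGGAA (23.3%), the KLF motif GGGTG (52.0%), the MAF half-site TGCTGAC (3.81%) and an IRF motif (2.98%). No match to TGACG overlapped one to GGGCGG in these 2 windows, and a match describes the letters only.

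In mm10 with GENCODE vM21, the protein-coding Spi1 gene lies on the + strand at chr2:91082390-91115756 and Cebpb at chr2:167688915-167690418 (+). Nr4a1 spans chr15:101254269-101274795 (+) and Klf4 chr4:55527143-55532466 (-). Cebpa spans chr7:35119293-35121928 (+), and Irf8 and Maf share a chromosome, at chr8:120736358-120756694 (+) and chr8:115682942-115707794 (-).

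Levels are given as counts per 1000000 UMIs (CPM): the UMIs of a gene, summed over the cells of a label or lineage in 1 sample and set against all UMIs of that sum, for sums of at least 10 cells. Samples held 55 to 1974 immune cells (median 295), with a median of 629 to 3689.5 UMIs per cell, the 4 primary tumors having 1972 to 3689.5 and distal normal tissue up to 2743.5. The 148 plates came from 12 sequencing batches. The 9 Control plates were the only plates of their batch, so Control and that batch cannot be told apart, and 1 other batch held primary tumor only. No pair of sums was identical and no well name occurred on 2 plates.

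The deposited labels were made by clustering these cells, so levels across labels are described without a test. The plot of mean levels by label covers 16 monocyte, macrophage, dendritic cell (DC) and neutrophil labels with at least 3 sums. The highest label of Nr4a1, Klf4 and Spi1 was kept with sums of at least 20 cells and with cells of at least 1000 UMIs. Under both, that of Cebpa turned to Mac_Gpnmb, that of Cebpb to Mon_Ace and that of Maf to Mac_Cd81, and that of Irf8 to Mac_Gpnmb and DC_cDC1, respectively. The labels also differ in their share of sums from the sequencing batches in which Spi1, Nr4a1 and Cebpa were higher, described after the labels.

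**Figure D1:**
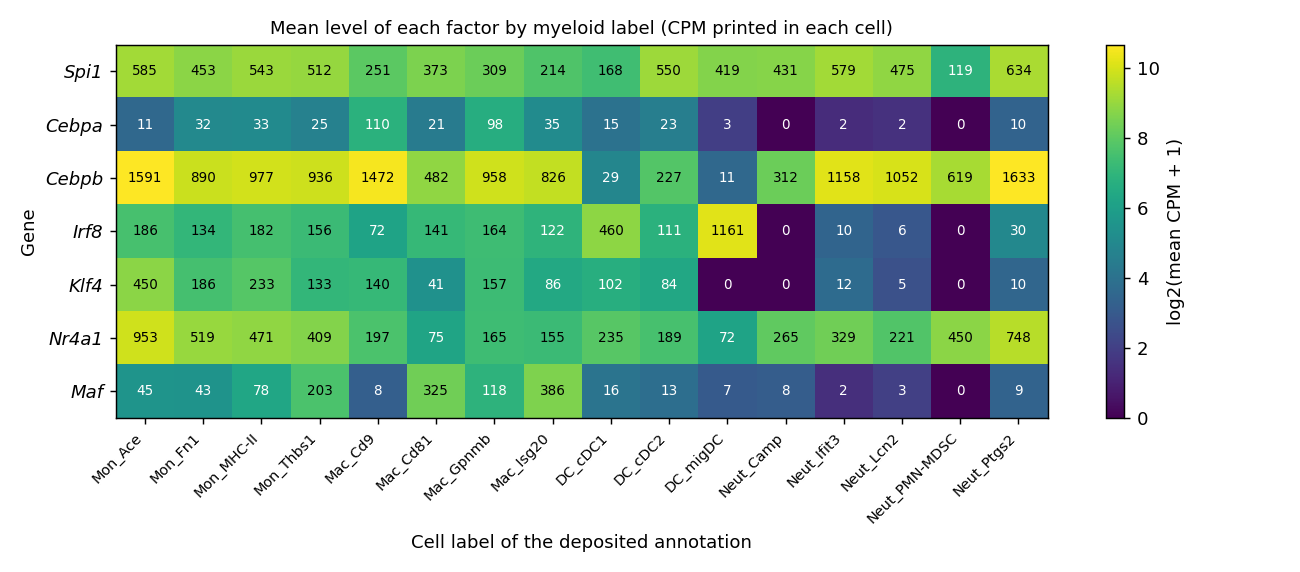
Mean CPM of each of the 7 factors (rows) over the sums of each of 16 myeloid labels (columns), with the mean printed in each cell and the color giving log2 of the mean CPM plus 1. Nr4a1 and Klf4 are highest in Mon_Ace, Irf8 in DC_migDC, Maf in Mac_Isg20 and Mac_Cd81, Cebpa in Mac_Cd9 and Mac_Gpnmb, and Cebpb and Spi1 in Neut_Ptgs2, of which the places of Irf8, Maf, Cebpa and Cebpb changed with stricter cell filters.

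Spi1 was the broadest of the members. Its mean ran from 634 ± 447 CPM in Neut_Ptgs2 (SD, n = 29), 585 ± 313 in Mon_Ace (n = 32) and 579 ± 763 in Neut_Ifit3 (n = 16) down to 214 ± 185 in Mac_Isg20 (n = 15), 168 ± 134 in DC_cDC1 (n = 5) and 119 ± 136 in Neut_PMN-MDSC (n = 5). None of the other 15 labels lay below the spread of the highest label. These means join batches of unequal Spi1: all 5 DC_cDC1 sums and 10 of 15 Mac_Isg20 sums were in batches with low Spi1, against 6 of 14 Mac_Gpnmb sums. In those batches Mac_Isg20 had 120 ± 106 CPM, Mac_Gpnmb 110 ± 52.9 and DC_cDC1 168 ± 134. Outside the myeloid labels it was 112 ± 143 CPM in B cells (n = 30), and 0 to 48.0 CPM as means over the T and NK labels. In T_CD8_Lag3 there was no Spi1 UMI among 353573, which allows up to 8.48 CPM, a limit that covers counting error only.

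Cebpa was detected at low levels, with its highest means in a pair of macrophage labels. Mac_Cd9 averaged 110 ± 182 CPM (n = 11, from 0 to 645) and Mac_Gpnmb 98.4 ± 77.9 CPM (n = 14, from 0 to 256). Mac_Isg20 (34.5 ± 42.2, n = 15) and Mac_Cd81 (20.5 ± 18.9, n = 9) were at the level of the monocytes. Monocyte labels averaged 11.2 CPM (Mon_Ace) to 33.5 CPM (Mon_MHC-II). The neutrophil labels had means of 0 to 9.69 CPM, with no Cebpa UMI in Neut_Camp or Neut_PMN-MDSC, which allows up to 25.3 and 28.5 CPM. The lead of Mac_Cd9 rests on 1 distal normal sum of 645 CPM, and among sums of at least 20 cells Mac_Gpnmb was highest. The place of Mac_Gpnmb rests on its 8 sums in the 3 batches with high Spi1, where it had 147 ± 65.1 CPM beside 63.3 ± 36.3 in Mac_Isg20 (n = 5). In the other batches Mac_Gpnmb had 33.8 ± 32.7 CPM (n = 6), below the 37.6 ± 47.7 of Mon_MHC-II (n = 14).

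Cebpb was highest in Neut_Ptgs2, in Mon_Ace and in Mac_Cd9 (the alveolar macrophages of the study). The study names Mon_Ace classic monocytes, and in its 3 Control sums 8 genes of patrolling monocytes summed to 3823 to 4487 CPM and 7 genes of classical monocytes to 673 to 1338 CPM. Neut_Ptgs2 averaged 1633 ± 626 CPM (n = 29), Mon_Ace 1591 ± 559 (n = 32) and Mac_Cd9 1472 ± 513 (n = 11). In the batches with low Spi1 Mon_Ace was first, at 1797 ± 520 CPM (n = 21) beside 1671 ± 676 in Neut_Ptgs2 (n = 18). The granule-rich Neut_Lcn2 stood at 1052 ± 490 CPM (n = 24) and Neut_Camp at 312 ± 115 (n = 4). Among DCs it was 227 ± 310 CPM in DC_cDC2 (n = 16), 29.1 ± 28.2 in DC_cDC1 (n = 5) and 11.0 ± 19.1 in DC_migDC (n = 3). Mac_Cd81, at 482 ± 315 CPM (n = 9), had the lowest mean of the 4 macrophage labels.

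Among the myeloid labels the Irf8 mean was highest in DC_migDC and DC_cDC1, while DC_cDC2 lay below all 4 monocyte labels. In the 3 DC_migDC sums it was 628, 1135 and 1721 CPM, a mean of 1161 ± 547, and in DC_cDC1 460 ± 175 CPM (n = 5, from 174 to 597). Of the other 15 labels only DC_cDC1 reached into the spread of DC_migDC, and 14 lay below it. All 3 DC_migDC sums were from primary tumors and from the 3 sequencing batches in which Spi1 was high, and all 5 DC_cDC1 sums were from lungs and other batches. DC_cDC2 had 111 ± 110 CPM (n = 16), Mon_Ace 186 ± 179 (n = 32) and Mac_Cd9 71.9 ± 53.7 (n = 11). Neutrophil labels averaged 0 to 30.3 CPM. The 73 plasmacytoid cells (DC_pDC), too few per sample for a sum, held 401 Irf8 UMIs of 237323, or 1690 CPM. Lymphoid cells also carried it: NK_Ncr1 averaged 1013 ± 465 CPM (n = 40, from 309 to 2241), NK_Xcl1 614 ± 381 (n = 6) and B cells 320 ± 231 (n = 30).

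Klf4 was led by Mon_Ace at 450 ± 239 CPM (n = 32). Mon_MHC-II (233 ± 160, n = 23), Mon_Fn1 (186 ± 144, n = 54), Mac_Gpnmb (157 ± 106, n = 14), Mac_Cd9 (140 ± 86.1, n = 11) and Mon_Thbs1 (133 ± 121, n = 25) lay within its spread, and the other 10 labels lay below. Neutrophil means were 0 to 12.3 CPM, and no Klf4 UMI was found among 221559 in DC_migDC, which allows up to 13.5 CPM.

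Nr4a1 shared the highest label with Klf4 and, unlike Klf4, had its next highest mean in a neutrophil label. It averaged 953 ± 448 CPM in Mon_Ace (n = 32, from 113 to 1957), 748 ± 552 in Neut_Ptgs2 (n = 29), 519 ± 300 in Mon_Fn1 (n = 54) and 471 ± 324 in Mon_MHC-II (n = 23). Means of the macrophage labels were between 75.3 CPM in Mac_Cd81 and 197 CPM in Mac_Cd9. Of the other 15 labels, 9 lay below the spread of Mon_Ace. The place of Neut_Ptgs2 joins batches of unequal Nr4a1. Over all neutrophils its median was 728 CPM in the 3 batches with high Spi1 and 230 CPM in the others.

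Among the macrophage labels Maf was highest in Mac_Isg20, with Mac_Cd81 and Mac_Gpnmb within its spread and Mac_Cd9 below it. Mac_Isg20 averaged 386 ± 223 CPM (n = 15, from 118 to 928) and Mac_Cd81 325 ± 346 (n = 9, from 0 to 1049), while Mac_Gpnmb averaged 118 ± 108 (n = 14) and the alveolar Mac_Cd9 8.48 ± 16.5 (n = 11, from 0 to 43.3). The Mac_Cd81 mean joins 4 primary tumors at 587 ± 371 CPM, 3 cores at 90.6 ± 81.6 CPM and 2 metastases at 22.5 and 278 CPM. In the batches with high Spi1 Mac_Cd81 was above Mac_Isg20, at 525 ± 350 and 304 ± 138 CPM (n = 5 each). Those Mac_Cd81 sums include the 4 primary tumors, whereas Mac_Isg20 had sums from cores and metastases only, so label and tissue cannot be told apart there. Mon_Thbs1 was the highest monocyte label, at 203 ± 162 CPM (n = 25). Maf means were 7.17 to 16.3 CPM in the 3 DC labels and 0 to 9.41 CPM in the neutrophil labels. Among lymphocytes it was 471 ± 271 CPM in T_Treg (n = 7) and 251 ± 187 CPM in T_CD4_S100a4 (n = 27).

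When the 16 labels were ranked for each gene, 0 of 105 pairs of neighbours in rank differed beyond their spread (mean ± SD). The genes whose label means followed each member most closely (Pearson's r of mean log2(CPM + 1) over the 16 labels, which share libraries and depth, among 7487 genes with a label mean of at least 50 CPM) were Lyn for Nr4a1 (r = 0.87), Tnfsf12 for Cebpa (0.97), Rnf149 for Cebpb (0.95), Xpo1 for Irf8 (0.96), Elmo2 for Klf4 (0.96), Msr1 for Maf (0.95) and Coro1a for Spi1 (0.90). Klf2, another Krüppel-like factor, was the third closest to Nr4a1 (0.85). Among the members themselves r was highest for Cebpa with Klf4 (0.75) and lowest for Cebpb with Irf8 (-0.50).

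Spi1 moved with the sequencing batch. In 3 of the 10 batches with monocyte sums its median was at least 500 CPM, and the monocyte sums of those 3 batches ran from 403 to 1468 CPM (median 894, n = 25), against 87.5 to 527 CPM (median 252, n = 37) in the others. Each of the 7 samples on over 1 batch was counted in the batch with most of its wells. The batches were picked by this Spi1 median, so the gap is a description. Within tissues, distal normal monocytes had 689 to 1040 CPM in the 3 batches (n = 6) and 87.5 to 332 CPM in the others (n = 8), which do not overlap, and margin monocytes had 796 to 1100 CPM (n = 3) against 155 to 262 CPM (n = 3). The ranges overlapped in metastasis monocytes, at 403 to 943 CPM (n = 6) and 94.3 to 515 CPM (n = 7), and in core monocytes, at 490 to 1468 CPM (n = 5) and 138 to 527 CPM (n = 8). Macrophage medians were 604 and 164 CPM, neutrophil medians 1057 and 315 CPM, and DC medians 900 and 155 CPM.

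Nr4a1 moved with those batches too. Its monocyte median was 889 CPM in the 3 batches and 369 CPM in the others, and in distal normal monocytes its ranges, 667 to 1566 and 316 to 644 CPM, did not overlap, whereas in metastases they did (701 to 1444 and 94.3 to 955 CPM). The ranges of margins (926 to 1173 and 323 to 413 CPM) and of cores (418 to 1311 and 108 to 275 CPM) did not overlap either. Primary tumor monocytes, all of them in the 3 batches, were at 143 to 274 CPM, and the 5 cores of those batches at 418 to 1311 CPM. Of the 4 tumors 3 lay in a batch that held primary tumor only, so only the other tumor shared a batch with cores. Cebpa moved with the batches as well, with medians of 44.5 and 12.4 CPM in monocytes and 66.3 and 21.9 CPM in macrophages. In Mac_Gpnmb it averaged 147 ± 65.1 CPM in the 3 batches (n = 8) and 33.8 ± 32.7 CPM in the others (n = 6). Monocyte medians were 185 and 129 CPM for Irf8, 66.4 and 40.5 CPM for Maf, 202 and 195 CPM for Klf4, and 905 and 1027 CPM for Cebpb.

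**Figure D2:**
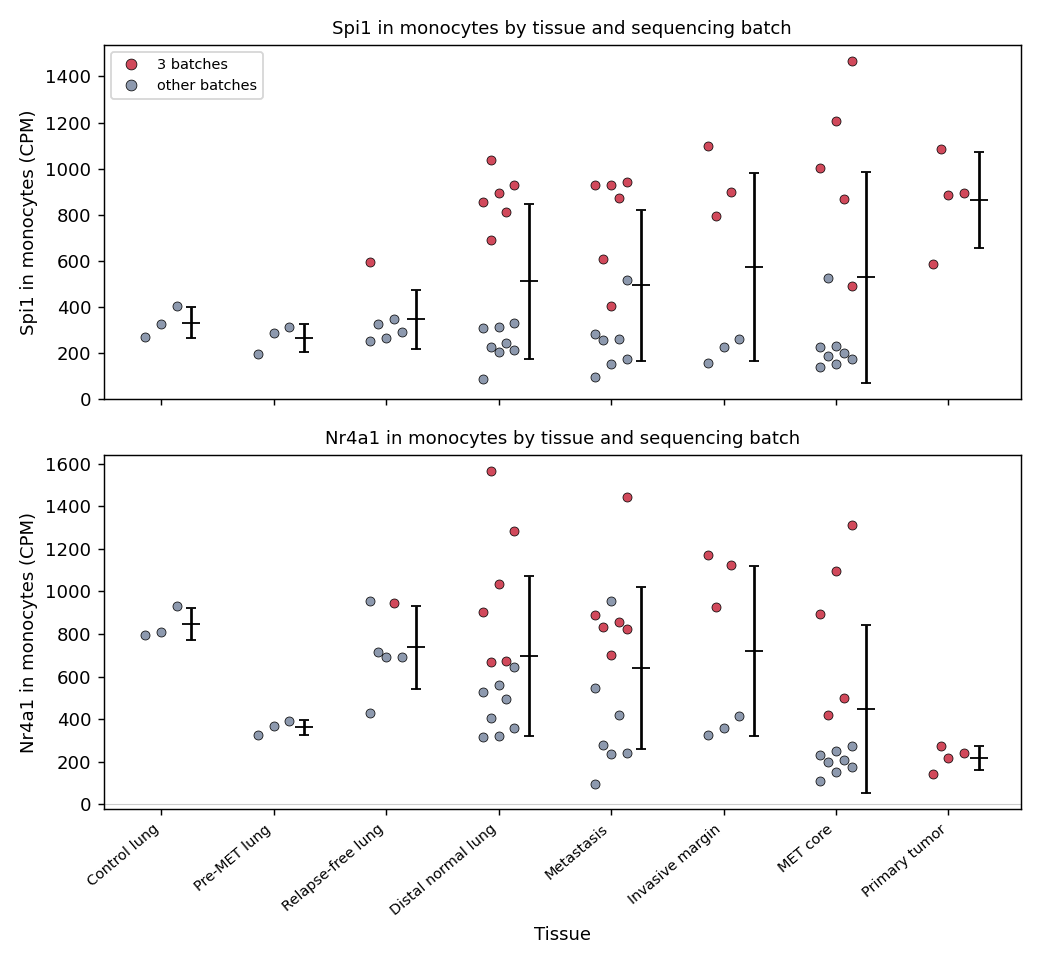
Spi1 (top) and Nr4a1 (bottom) in monocytes, in CPM, by tissue, with 1 point per mouse, red for the 3 sequencing batches with a monocyte Spi1 median of at least 500 CPM and gray for the other batches, and the bar giving mean ± SD of all points. In distal normal tissue the red points of both genes all lie above the gray ones.

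The first comparison asked what changed in lung monocytes between Control and Pre-MET mice, before metastases. Nr4a1 fell. Control monocytes had 797, 810 and 932 CPM (mean 846 ± 74.7, 468 UMIs) and Pre-MET monocytes 323, 369 and 391 CPM (mean 361 ± 34.5, 491 UMIs). The groups did not overlap, and the log2 fold change was -1.26 with a standard error (SE) of 0.19 (adjusted p = 0.000797, edgeR's quasi-likelihood test with Benjamini-Hochberg adjustment over all genes). Klf4 fell as well, from 316, 412 and 707 CPM (mean 479 ± 203) to 183, 189 and 195 CPM (mean 189 ± 6.21). Its groups did not overlap either, and its log2 fold change was -1.35 (SE 0.27, edgeR adjusted p = 0.00953).

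Among the 4953 genes tested, 214 were called at an adjusted p below 0.05, or 4.32%. Of the 7 members 5 could be tested and 2 were called, with a median log2 fold change of -0.75 beside -0.02 over all genes tested. Cebpb had 1651 ± 88.6 and 1196 ± 226 CPM, without overlap (edgeR adjusted p = 0.134). Irf8 (146 ± 96.0 and 92.4 ± 25.0 CPM, edgeR adjusted p = 0.418) and Spi1 (332 ± 67.2 and 266 ± 60.1 CPM, 0.478) overlapped. Cebpa (14 and 8 UMIs) and Maf (20 and 18 UMIs) were below the filter on low counts.

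The Nr4a1 call was kept in all 12 refits. Klf4 kept it in 8 of 12, with log2 fold changes of -1.56 to -0.95 over all 12. It lost the call without Control mouse 3 (-0.95, edgeR adjusted p = 0.0729), without Pre-MET mouse 8 (-1.35, 0.0565), without Pre-MET mouse 10 (-1.30, 0.0513) and without the cells labelled Mon_Ace (-1.40, 0.135). Control and Pre-MET shared no sequencing batch, so batch and group cannot be told apart.

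**Figure D3:**
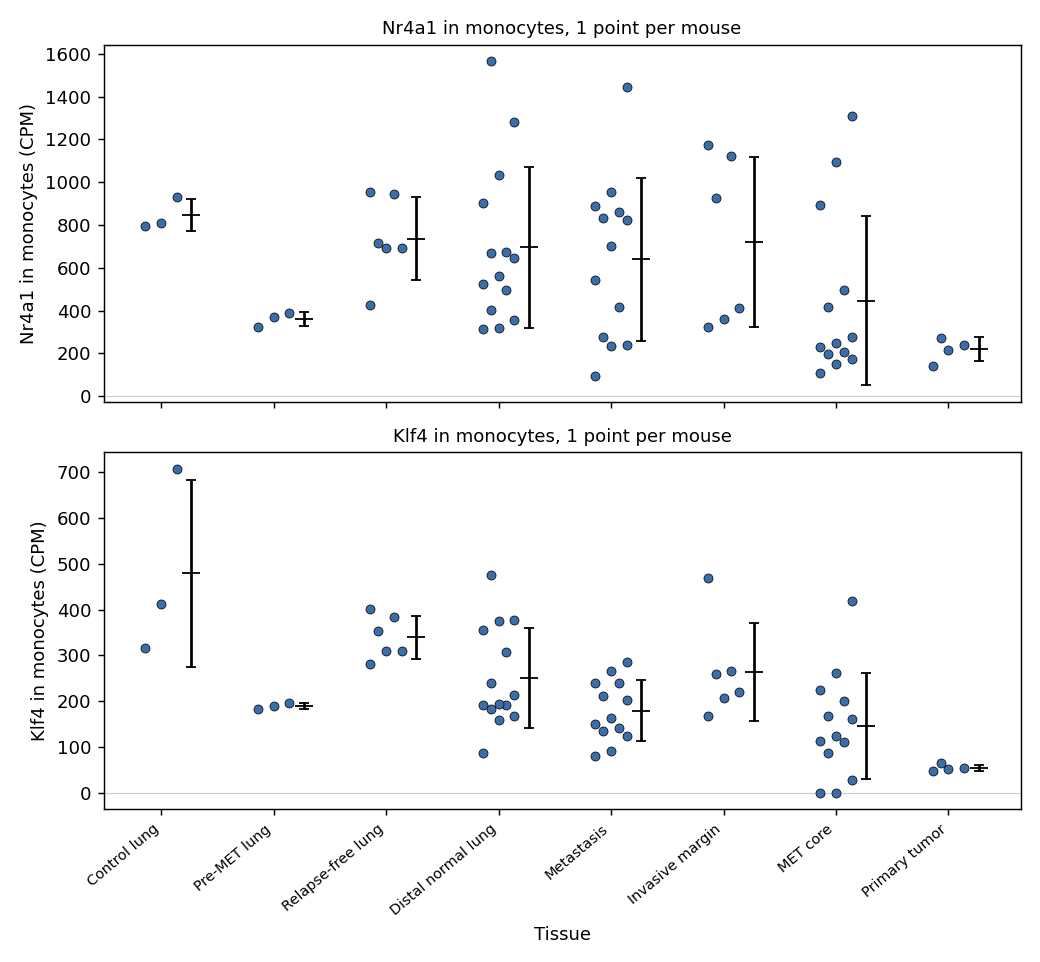
Nr4a1 (top) and Klf4 (bottom) in monocytes, in CPM, by tissue, with 1 point per mouse and the bar giving mean ± SD. The 3 Pre-MET lungs lie at 323 to 391 CPM for Nr4a1 and 183 to 195 CPM for Klf4, below all 3 Control lungs, and the 4 primary tumors at 143 to 274 and 48.2 to 65.0 CPM.

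The makeup of the monocytes moved with the same comparison. Mon_Ace cells, in which both genes were highest, made up 54.4 to 62.3% of Control monocytes and 18.2 to 26.0% of Pre-MET monocytes, and Mon_Fn1 cells 23.0 to 24.8% and 63.7 to 75.0%. Of 8 genes of patrolling monocytes 5 fell (Cx3cr1, Spn, Treml4, Adgre4 and Cd36), and their summed level was 1998 to 3035 CPM in Control and 998 to 1121 CPM in Pre-MET. Of 7 genes of classical monocytes 5 rose (Chil3, F13a1, Fn1, Hp and Vcan), their sums being 2397 to 2833 and 5090 to 6677 CPM. With Mon_Ace cells left out, a choice made after the data were seen, Nr4a1 was 622, 658 and 806 CPM in Control and 300, 315 and 333 CPM in Pre-MET, and was still called (log2 fold change -1.18, edgeR adjusted p = 0.0194). Klf4 was then 165, 285 and 685 CPM in Control and 133, 139 and 153 CPM in Pre-MET, again without overlap.

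Within single labels the same direction was seen for Nr4a1, without a call. The share of genes called was 0.371% in Mon_Ace, 0.336% in Mon_Fn1 and 0.0% in Mon_MHC-II, the last with 43 of 496 genes at an unadjusted p below 0.05. In Mon_Ace it was 939, 1050 and 1119 CPM in Control and 429, 625 and 806 CPM in Pre-MET (edgeR adjusted p = 0.244). In Mon_Fn1 the values were 494, 631 and 812 against 263, 298 and 350 CPM (log2 fold change -1.11, SE 0.30, edgeR adjusted p = 0.126), and in Mon_MHC-II 557, 615 and 793 against 163, 403 and 415 CPM (-1.03, SE 0.54, edgeR adjusted p = 0.586). The groups did not overlap in any of the 3 labels. Mon_MHC-II rested on 5 to 11 Nr4a1 UMIs per Pre-MET mouse.

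For Klf4 the labels differed in their spread. In Mon_Ace it was 531, 565 and 729 CPM in Control and 389, 460 and 504 CPM in Pre-MET, without overlap (edgeR adjusted p = 0.622). In Mon_Fn1 the 3 Control mice were at 40.3, 258 and 932 CPM, around the 138, 146 and 158 CPM of the Pre-MET mice (log2 fold change -1.31, edgeR adjusted p = 0.411). Without Control mouse 3 the sign turned, to 0.12. In Mon_MHC-II, not tested for low counts, it was 301, 340 and 403 CPM in Control and 98.0, 110 and 113 CPM in Pre-MET, the latter from 3 UMIs in each mouse.

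**Figure D4:**
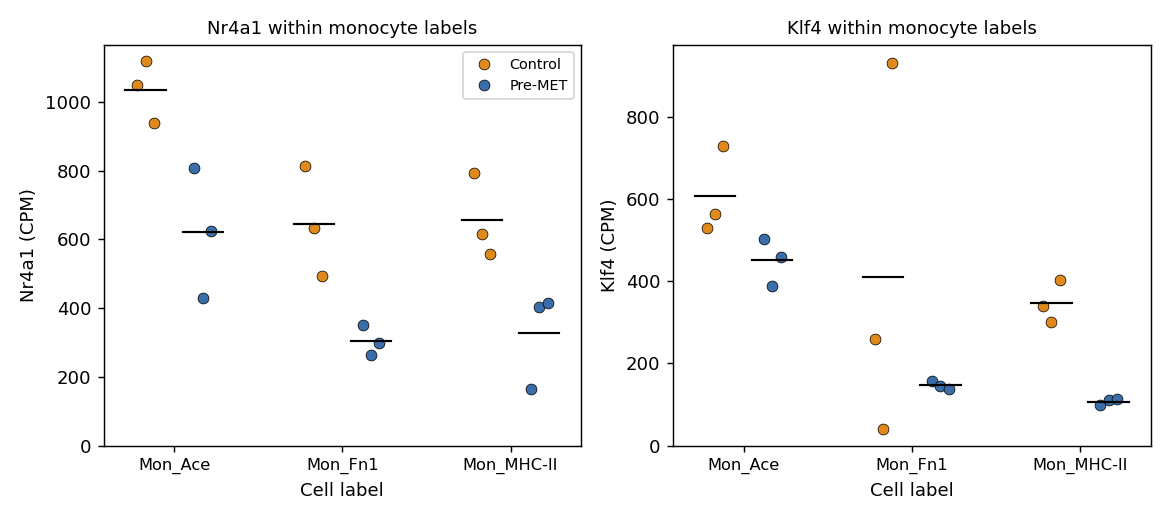
Nr4a1 (left) and Klf4 (right) in CPM within 3 monocyte labels, with 1 point per mouse, orange for Control and blue for Pre-MET, and lines at the group means. Nr4a1 groups are apart in each label, whereas Klf4 in Mon_Fn1 spreads from 40.3 to 932 CPM among the 3 Control mice.

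Among 36 other factors of myeloid fate, listed with earlier results of these data known, 22 were tested in this comparison and 2 were called, both lower in Pre-MET. Klf2, a quiescence-associated Krüppel-like factor, had 857 ± 86.1 CPM in Control and 290 ± 51.2 in Pre-MET (log2 fold change -1.59, SE 0.20). Klf6, of the same family, had 700 ± 129 and 363 ± 69.2 CPM (-0.98, SE 0.21). Nr4a1 is also an immediate early gene, and of 16 such genes 12 were tested and 1, Dusp1, fell. Their summed level was 8377 to 9869 CPM in Control and 6080 to 6980 CPM in Pre-MET, and that of 7 heat shock genes was 547 to 866 and 405 to 530 CPM. The part of these in the Nr4a1 result was not tested.

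Markers of other cell types within the monocyte sums differed between the groups too. Macrophage genes of tumors summed to 3014 to 4127 CPM in Control and 634 to 745 CPM in Pre-MET, NK cell genes to 98.6 to 229 and 15.1 to 34.2 CPM, and neutrophil genes to 382 to 838 and 1133 to 2186 CPM. T cell genes summed to 53.4 to 71.7 and 20.8 to 49.9 CPM. Their part in the result was not tested.

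Monocytes of Relapse-free lungs had 427 to 954 CPM of Nr4a1 (mean 737 ± 195, n = 6), all above the 3 Pre-MET lungs and reaching past the highest Control lung, and 340 ± 46.7 CPM of Klf4. These are given side by side, with no test. The Relapse-free lungs of mice 6 and 7 had part of their monocytes in the 2 sequencing batches that hold the Pre-MET lungs. In one of these batches the Relapse-free lungs had 500.3 and 1064 CPM of Nr4a1 beside 323 to 437 CPM in the 3 Pre-MET lungs, and in the other 457.96 and 499 CPM beside 363 and 375 CPM in 2 of them. In the first batch Klf4 had 367 and 457 CPM beside 128 to 255 CPM, and in the second 279 and 314 CPM beside 160 and 220 CPM, so within both batches the values of the groups did not overlap. These rest on 37 to 204 cells and 19 to 136 UMIs of the gene a lung. The Pre-MET plates were all sorted without a GFP gate, whereas Relapse-free mice 6 and 7 also had plates gated on photoactivated or on GFP- cells. The part of this gate in the values was not tested.

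The second comparison set distal normal tissue against metastases, mostly of the same mice. In monocytes none of the 5 members tested was called, where 31 of 2098 genes were (1.48%). Nr4a1 was 316 to 1566 CPM in distal normal tissue (median 603, mean 696 ± 376, n = 14) and 94.3 to 1444 CPM in metastases (median 701, mean 640 ± 381, n = 13), with wide overlap (edgeR adjusted p = 0.999). It was lower in the metastasis in 10 of the 13 mice with both tissues. Klf4 was 252 ± 109 and 180 ± 66.3 CPM (edgeR adjusted p = 0.636), and lower in the metastasis in 9 of 13 mice. Cebpb was 954 ± 321 and 991 ± 379 CPM (edgeR adjusted p = 0.980), Irf8 151 ± 69.7 and 183 ± 57.1 CPM (0.902), higher in the metastasis in 9 of 13 mice, and Spi1 511 ± 336 and 494 ± 327 CPM (0.999). None of the members was called with the mouse as a replicate block or with a batch term either. The members had a median log2 fold change of 0.03, against 0.00 over all genes tested. Maf, not tested for low counts, was 42.6 ± 49.5 and 102 ± 83.5 CPM, higher in the metastasis in 10 of 13 mice.

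In macrophages Maf rose. The 6 distal normal sums had 0 to 78.4 CPM (median 42.5, mean 39.0 ± 34.7), from 5 UMIs in all, and the 9 metastasis sums had 90.9 to 325 CPM (median 167, mean 196 ± 84.9), from 231 UMIs. The groups did not overlap, and the log2 fold change was 2.52 (SE 0.63, edgeR adjusted p = 0.0115). Maf passed the filter on low counts only through the metastasis sums, where it is high, so it had to differ in this direction to be tested. In each of the 5 mice with both tissues the metastasis was higher. Of 15 refits that tested Maf 13 called it, the one with a batch term among them. The log2 fold change was 2.19 to 3.03 over the 15. The call was lost with sums of at least 20 cells (2.48, SE 1.24, edgeR adjusted p = 0.407), which left 1 distal normal sum, assumed to vary like the metastases, and with cells of at least 1000 UMIs (2.45, SE 0.96, edgeR adjusted p = 0.153), which left 2. Maf fell below the filter on low counts, and was not tested, with the mouse as a replicate block and without the metastasis of mouse 23, 28, 30, 32, 33 or 37.

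Macrophages were called at a share of 9.54% (123 of 1289 genes), and 1 of the 5 members tested was among them. Nr4a1 had 79.3 ± 87.2 and 206 ± 135 CPM (log2 fold change 1.76, SE 0.73, edgeR adjusted p = 0.146), from 9 UMIs in distal normal tissue. Cebpb (1434 ± 561 and 965 ± 333 CPM, edgeR adjusted p = 0.565), Irf8 (152 ± 162 and 158 ± 86.5 CPM, 0.708) and Spi1 (369 ± 234 and 350 ± 276 CPM, 0.900) overlapped. In the 5 mice with both tissues Spi1 was lower in the metastasis in each. Of these sums 1 of the 6 distal normal and 5 of the 9 metastasis sums were in the batches with high Spi1, at 784 CPM and a median of 505 CPM, and in the other batches the medians were 287 and 112 CPM. Cebpa and Klf4 were not tested, with 13 and 18 UMIs in the distal normal sums.

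Maf moved together with the makeup of the macrophages. Mac_Cd9, where Maf was close to 0, was 30.0 to 88.2% of distal normal macrophages and 0 to 25.4% of those in metastases, and Mac_Isg20, where it was highest, 0 to 13.3% and 18.6 to 67.6%. Of 8 alveolar macrophage genes 2 were tested and both fell (Car4 and Mrc1), and of 8 genes of tumor macrophages 3 rose (Apoe, C1qc and Gpnmb). No macrophage label had 3 sums in both tissues, so the comparison could not be made within a label. Of the other factors of myeloid fate 6 were tested and 1 fell, Runx1 (332 ± 246 and 95.8 ± 31.9 CPM, log2 fold change -1.47, SE 0.43).

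**Figure D5:**
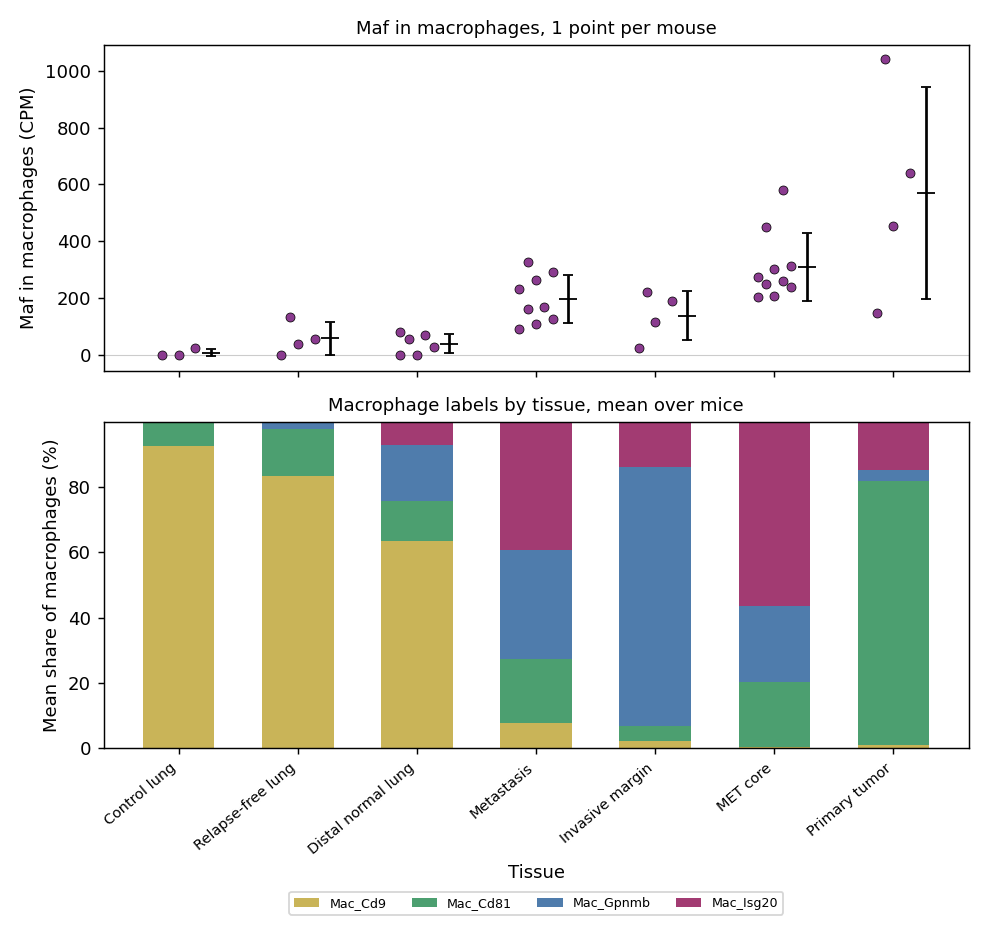
Top, Maf in macrophages in CPM by tissue, with 1 point per mouse and the bar giving mean ± SD. Bottom, mean share of the 4 macrophage labels in percent over the same mice, showing Mac_Cd9 as the main label in Control, Relapse-free and distal normal lung, where Maf is at 0 to 135 CPM. Pre-MET lungs had no macrophage sum of at least 10 cells.

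Across tissues, macrophage Maf was 0, 0 and 21.7 CPM in the 3 Control lungs and 0 to 135 CPM in the 4 Relapse-free lungs. It was 24.1 to 219 CPM in 4 margins, 204 to 582 CPM in 10 cores and 145 to 1041 CPM in 4 primary tumors. Cores and Control lungs thus did not overlap, and this pair was not tested.

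Neutrophils and DCs gave no calls between distal normal tissue and metastases. In neutrophils 0 of 715 genes were called by edgeR (0.0%), with 26 at an unadjusted p below 0.05 and 0 by DESeq2. Cebpb was 1623 ± 1673 and 998 ± 500 CPM (edgeR adjusted p = 0.999), Nr4a1 665 ± 692 and 508 ± 558 CPM (0.999) and Spi1 749 ± 429 and 615 ± 578 CPM (0.999). In DCs, with 3 and 10 sums, 0 of 621 genes were called by edgeR (0.0%), with 47 at an unadjusted p below 0.05 and 0 by DESeq2. Spi1 had 155, 186 and 292 CPM in distal normal tissue and 89.0 to 1157 CPM in metastases (mean 596 ± 429, log2 fold change 1.41, SE 0.74, edgeR adjusted p = 0.641), while Irf8 had 545 ± 183 and 447 ± 334 CPM (0.931) and Cebpb 201 ± 240 and 201 ± 256 CPM (0.954).

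Whether the change from distal normal tissue to metastasis differed between lineages was tested as an interaction. For macrophages against monocytes 80 of 2689 genes were called (2.98%), and none of the 6 members tested. The difference was 1.32 for Maf (SE 0.93, edgeR adjusted p = 0.533) and 1.94 for Nr4a1 (SE 0.76, 0.166), on the log2 scale. For neutrophils against monocytes 2 of 2086 genes were called (0.0959%), and none of the 5 members tested.

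The third comparison placed the invasive margin beside the metastatic core. In monocytes no gene was called among 1025 (0.0%), with 84 at an unadjusted p below 0.05 and 5 called by DESeq2. Nr4a1 was 323 to 1173 CPM in 6 margins (median 670, mean 720 ± 398) and 108 to 1311 CPM in 13 cores (median 250, mean 447 ± 396). In the 3 batches with high Spi1 its medians were 1124 CPM in 3 margins and 892 CPM in 5 cores. In the other batches they were 359 CPM in 3 margins and 203 CPM in 8 cores. Taken over all samples the groups overlapped widely (edgeR adjusted p = 0.798). Cebpb was 1145 ± 525 and 984 ± 554 CPM (edgeR adjusted p = 0.945) and Spi1 573 ± 406 and 529 ± 457.6 CPM (0.980).

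In the 5 mice with both regions, Nr4a1 was lower in the core in each: 359 and 250 CPM in mouse 17, 323 and 108 in mouse 26, 413 and 152 in mouse 28, 1124 and 497 in mouse 31, and 926 and 418 in mouse 36. With the mouse as a replicate block the log2 fold change was -1.08 (SE 0.26) and Nr4a1 was called (edgeR adjusted p = 0.0239), 1 of 58 called among 1354 genes (4.28%). The 3 mice with the lowest values were on other sequencing batches than the 2 with the highest, and each pair went the same way. With a batch term in place of the mouse it was not called (-0.62, SE 0.26, edgeR adjusted p = 0.376). Klf4 was lower in the core in 5 of 5 mice too, at means of 264 ± 106 and 146 ± 116 CPM over all samples (edgeR adjusted p = 0.603). Irf8 went the other way, higher in the core in 5 of 5 mice (107 ± 49.5 and 177 ± 127 CPM over all samples), as did Maf in 4 of 5 (74.5 ± 53.0 and 136 ± 99.6 CPM), neither tested for low counts.

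The makeup of the monocytes moved with this comparison. Mon_Thbs1 was 1.52 to 33.3% of margin monocytes (mean 11.7%) and 4.76 to 81.3% of core monocytes (mean 43.7%), and Mon_Fn1 had means of 60.0% and 32.6%. In Mon_Thbs1 Nr4a1 was 210 ± 58.5 CPM in 8 cores and 322 CPM in 1 margin. Within Mon_Fn1, with 5 and 7 sums, Nr4a1 was 580 ± 362 and 266 ± 265 CPM (log2 fold change -1.22, SE 0.54, edgeR adjusted p = 0.875), where no gene of 538 was called (0.0%) and 26 had an unadjusted p below 0.05.

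In macrophages of margin and core no gene of 1743 was called by edgeR (0.0%), with 178 at an unadjusted p below 0.05 and 39 called by DESeq2. Klf4 was 260 ± 113 CPM in 4 margins and 71.5 ± 61.8 CPM in 10 cores (log2 fold change -1.75, SE 0.52, edgeR adjusted p = 0.177). Maf was 137 ± 86.9 and 308 ± 119 CPM (1.07, SE 0.46, edgeR adjusted p = 0.412). The other 4 members tested had lower means in cores: Nr4a1 (252 ± 115 and 135 ± 118 CPM, edgeR adjusted p = 0.583), Cebpb (1222 ± 144 and 794 ± 405 CPM, 0.551), Irf8 (193 ± 112 and 114 ± 109 CPM, 0.811) and Spi1 (510 ± 294 and 297 ± 169 CPM, 0.553). Of these sums 3 of the 4 margins but 3 of the 10 cores were in the batches with high Spi1. Mac_Gpnmb, which has less Maf than Mac_Isg20, was 66.7 to 97.1% of margin and 6.82 to 58.6% of core macrophages. Within Mac_Gpnmb, with 4 and 3 sums, Klf4 was 215 ± 71.2 and 147 ± 45.9 CPM (edgeR adjusted p = 0.997), where no gene of 1026 was called (0.0%) and 19 had an unadjusted p below 0.05.

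The last comparison set primary tumors against metastatic cores. In monocytes 27 of 1835 genes were called (1.47%) and none of the 6 members tested. Klf4 was 48.2 to 65.0 CPM in the 4 primary tumors (mean 55.1 ± 7.11) and 0 to 420 CPM in 13 cores (mean 146 ± 116), a log2 fold change of 1.28 (SE 0.50, edgeR adjusted p = 0.220). Nr4a1 was 219 ± 55.8 and 447 ± 396 CPM (edgeR adjusted p = 0.556), and its relative Nr4a2 rose, from 37.7 ± 24.6 to 196 ± 105 CPM (log2 fold change 2.10, SE 0.45, edgeR adjusted p = 0.0179). Cebpb was 607 ± 83.9 and 984 ± 554 CPM (edgeR adjusted p = 0.600), Irf8 193 ± 83.2 and 177 ± 127 CPM (0.872), Maf 163 ± 66.8 and 136 ± 99.6 CPM (0.862) and Spi1 864 ± 207 and 529 ± 457.6 CPM (0.491). All 4 tumors but 5 of the 13 cores lay in the batches with high Spi1, where the Spi1 median was 892 CPM in tumors and 1003 CPM in cores. With a batch term the log2 fold change of Spi1 turned from -0.87 to 0.42, and no gene was called. Of the 4 tumors 3 lay in a batch that held primary tumor only, so the batch-term estimate rests on the other tumor.

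In macrophages 98 of 2162 genes were called (4.53%), none of them among the 5 members tested. Spi1 was 666 ± 200 CPM in 4 primary tumors and 297 ± 169 in 10 cores (log2 fold change -1.18, SE 0.40, edgeR adjusted p = 0.0947), and Maf 570 ± 374 and 308 ± 119 CPM (edgeR adjusted p = 0.137). All 4 primary tumors but only 3 of the 10 cores lay in the batches with high Spi1, and those 3 cores had 421 to 641 CPM. With a batch term the signs of both genes turned, Spi1 to 0.21 and Maf to 0.94 on the log2 scale, and 2 genes in all were called. Of the 4 tumors 3 lay in a batch that held primary tumor only, so the batch-term estimates rest on the other tumor. Cebpb was 400 ± 132 and 794 ± 405 CPM (edgeR adjusted p = 0.189), Irf8 188 ± 81.2 and 114 ± 109 CPM (0.627) and Nr4a1 55.8 ± 41.7 and 135 ± 118 CPM (log2 fold change 1.44, SE 0.64, 0.240). In the batches with high Spi1 Nr4a1 was 21.4 to 114 CPM in the 4 tumors (median 43.9). In the 3 cores of those batches it was 183 to 374 CPM (median 186), without overlap. Those batches include the tumor-only batch, so 3 of these 4 tumors shared no batch with a core. With a batch term the log2 fold change of Nr4a1 was 1.35 (SE 1.04, edgeR adjusted p = 0.713).

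Within Mac_Cd81, the main label of primary tumor macrophages (69.6 to 88.1%), 2 members were called among 129 of 1563 genes (8.25%). Maf had 160, 478, 661 and 1049 CPM in primary tumors (1182 UMIs) and 0, 113 and 158 CPM in cores (7 UMIs). The log2 fold change was -2.71 (SE 0.75, edgeR adjusted p = 0.0342), and the nearest tumor and core, at 160 and 158 CPM, almost met. Maf passed the filter on low counts only through the tumor sums, where it is high, so it had to differ in this direction to be tested. Spi1 had 418, 650, 741 and 828 CPM against 0, 113 and 291 CPM, the latter from 12 UMIs (-2.18, SE 0.59, edgeR adjusted p = 0.0317). With a core that had no Spi1 UMI, Spi1 too passed the filter on low counts only through the tumor sums, where it is high. The 4 tumors were all in the batches with high Spi1 and the 3 cores were all in other batches, so batch and tissue cannot be told apart. Maf was called in 2 of the 4 leave-outs in which it was tested, with log2 fold changes of -4.55 to -2.48, and Spi1 in 2 of 7, with -4.71 to -1.92. Without core 24 the edgeR adjusted p was 0.0716 for Maf (-2.87) and 0.0882 for Spi1 (-2.21), and without core 30 it was 0.0602 (-2.48) and 0.0968 (-1.92). Without primary tumor 9, 10 or 38 Maf fell below the filter on low counts, which it passed through the tumor sums, and Spi1 lost the call (edgeR adjusted p = 0.0610, 0.0797 and 0.0740). Irf8 was 189 ± 88.9 and 35.2 ± 61.0 CPM (-1.93, SE 0.89, edgeR adjusted p = 0.186) and Cebpb 356 ± 159 and 636 ± 531 CPM (0.739).

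Core sums of Mac_Cd81 were also shallow, with 10, 11 and 22 cells against 16 to 57 in primary tumors. Tumor macrophage genes summed to 25172 to 29361 CPM in primary tumors and 7052 to 8663 CPM in cores, and neutrophil genes to 61.4 to 162 and 475 to 1020 CPM. Of the other factors of myeloid fate 6 were tested and Irf7 fell, from 552 ± 189 CPM (994 UMIs) to 72.7 ± 126 CPM (3 UMIs). With so few core UMIs it passed the filter on low counts through the tumor sums. The part of these in the result was not tested. Over all 10 comparisons within labels 41 tests of members gave these 2 calls. Of all genes tested, 0.0 to 8.25% were called in a comparison, the highest share being this one in Mac_Cd81.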

How the data were processed

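SPID-seq libraries of sorted cells were sequenced, and the authors deposited UMI counts per gene and well for 148 plates of 384 wells, with an annotation of cells. According to their methods and notes, reads were demultiplexed (bcl2fastq 2.15.0.4), aligned to mm10 with HISAT and counted over UCSC gene models. Cells under 500 UMIs were dropped and cell labels came from metacell clustering. Of 24020 annotated cells, 595 that are no immune cells were left out.

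Raw counts were summed per mouse, tissue and label or lineage (at least 10 cells) and given as CPM. Sums were tested with edgeR 4.0.16 (R 4.3.3): its quasi-likelihood test after TMM scaling, on genes that passed filterByExpr, with p-values adjusted after Benjamini and Hochberg over the genes tested and calls at an adjusted p below 0.05. Fits held the 2 tissues compared. Direction is second minus first tissue. Scripts were tested on simulated counts. Alternatives were DESeq2 1.42.0, its size factors, no filter, at least 20 cells, cells of at least 1000 UMIs, a batch term, a replicate block and leave-outs.

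The mouse number pairs samples, since same-numbered samples are the same animal. Deviations of all genes correlated at a mean r of 0.22 over 13 mice between distal normal and metastasis monocytes (-0.01 between different mice) and 0.38 over 5 mice between margin and core. Labels name separate mice as replicates.

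The members and all gene lists were chosen with earlier results of these data known. The members tested are named in each comparison of lineages, and of the 36 other factors at most 5 called genes per comparison. A few genes of the lists are not reported here and were left out of their counts and sums. For members not called, fold changes are given where they reach 1 on the log2 scale. The 3 genes most like each member were ranked by Pearson's r. Sequences are RefSeq's, matched by symbol. The numbers of UMIs limit precision, and intervals cover counting error only.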

Additional observations from a re-analysis of the deposited data

Results flagged for a closer look

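Among 76 groups of 4 to 10 sums, 7 held a sum whose gap to its nearest neighbour was beyond Dixon's 95% limit for the group's range. Chance gives about 1 group in 20 where values are independent and normally distributed. These groups share samples, some sums hold few UMIs, and batches differ in level, so that rate need not hold here. No explanation was tested for any of them.

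Neutrophils of the metastasis of mouse 36 had 1910 CPM of Nr4a1, from 70 UMIs in 48 cells, beside 26.7 to 593 CPM in the other metastases. Neutrophils of the metastasis of mouse 37 had 1925 CPM of Spi1, from 316 UMIs in 155 cells, beside 0 to 928 CPM. In distal normal neutrophils mouse 31 had 5660 CPM of Cebpb, from 42 UMIs in 11 cells, beside 239 to 2718 CPM. DCs of the metastasis of mouse 26 had 807 CPM of Cebpb, from 17 UMIs in 15 cells, beside 0 to 413 CPM.

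Distal normal macrophages of mouse 33 had 627 CPM of Cebpa, from 8 UMIs in 14 cells, beside 0 to 113 CPM. Monocytes of the invasive margin of mouse 36 had 469 CPM of Klf4, from 43 UMIs in 39 cells, beside 167 to 266 CPM. Relapse-free monocytes of mouse 35 had 596 CPM of Spi1, from 250 UMIs in 100 cells, beside 252 to 349 CPM, and this sum was the only Relapse-free one in the 3 sequencing batches with high Spi1.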

How the results depend on the processing

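Of 191 refits of 24 member results, 169 kept the side of the threshold and the sign, 13 lost the call, 5 gained it and 4 reversed. With a batch term between primary tumor and core, the log2 fold change turned to 0.42 for Spi1 in monocytes, 0.21 for Spi1 in macrophages and 0.94 for Maf in macrophages. Each of these estimates rests on the only tumor that shared a batch with cores. Klf4 in Mon_Fn1, Control against Pre-MET, ranged from -1.80 to 0.12 over leave-outs, the latter without Control mouse 3. The cause was not tested.

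The number of members called in Control against Pre-MET monocytes was 2, and 1 without Mon_Ace cells (1 to 2 over leave-outs). In distal normal against metastasis it was 1 with no filter in monocytes (Maf), and in macrophages 2 with no filter, 0 at 20 cells, 0 at 1000 UMIs per cell, 0 to 1 over leave-outs and 0 with the replicate block, where Maf fell below the filter. With the replicate block it was 1 in margin against core monocytes (Nr4a1), and the block changed no other call of a member. In primary tumor against core it was 1 with no filter in both lineages (Spi1), and 0 to 1 in macrophages over leave-outs (Maf without tumor 8). With no filter more genes were also called in all in each of these comparisons, as given below. The calls gained there are thus not read as particular to the members. Within labels the number of members called was 0 to 2 over leave-outs. The highest label stayed for 3 of 7 members at 20 cells and for 3 at 1000 UMIs per cell.

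Counts of all genes called moved by over 1.5 times as follows. For Control against Pre-MET monocytes DESeq2 called 387 against 214, cells of at least 1000 UMIs 127, and leave-outs 87 to 138. For distal normal against metastasis, monocytes gave 31, but 80 with DESeq2, 322 with no filter, 15 at 1000 UMIs, 79 with the block and 57 with a batch term. Macrophages gave 123, but 256 with DESeq2, 461 with no filter, 2 at 20 cells and 59 at 1000 UMIs. For margin against core no filter gave 91 genes in monocytes and 17 in macrophages, where 0 were called. For primary tumor against core, monocytes gave 27, but 138 with DESeq2, 320 with no filter, 43 at 20 cells and 0 with a batch term, and macrophages gave 98, but 196, 258, 62 at 1000 UMIs and 2 with a batch term. Few UMIs limit Cebpa throughout and the Maf calls in macrophages, with 5 UMIs in distal normal sums and 7 in Mac_Cd81 cores.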
